A study of Homo sapiens with 4 samples.

Results

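The chromosome 19 zinc finger genes described here are the 246 protein-coding genes on human chromosome 19 whose symbol is ZNF followed by a number, with or without a final letter, out of 19974 coding genes in a RefSeq annotation of GRCh38. The rule uses symbol and position alone and no measured value, though it was proposed with earlier results of these data known. Of the 246 genes, 226 lay in 12 clusters, which are runs of at least 5 members with gaps of at most 250 kb, and 20 lay scattered. The comparison sets were the 1205 other coding genes of chromosome 19 and the 263 ZNF genes on other chromosomes.

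BRD8, a bromodomain protein found in the TIP60 (NuA4) complex, which acetylates histones, was mapped by chromatin immunoprecipitation and sequencing in HCT116 and in SW480, which are established human colorectal cancer lines. Each line had 1 BRD8 ChIP library and 1 input library of unprecipitated chromatin, so 4 libraries in all, and no line had a replicate. Cells were fixed for 10 min in formaldehyde at 1%, chromatin was cut with micrococcal nuclease, 2 µg of a polyclonal antibody was used for each precipitation, and libraries from 1 ng of DNA were read as 150 bp pairs. HCT116 was grown in McCoy's 5A and SW480 in Leibovitz's L-15 medium, so line and medium cannot be told apart.

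Most zinc finger genes of chromosome 19 encode KRAB zinc finger proteins, DNA-binding proteins whose fingers read a sequence and whose KRAB box recruits the co-repressor TRIM28 and, through it, histone methylation and heterochromatin proteins. Many of them bind retrotransposons. The genes arose by repeated tandem duplication, which left them in dense clusters, and their 3′ exons, which encode the finger arrays, are known in human cells to carry repressive chromatin placed there with the help of the zinc finger protein ZNF274.

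The promoters of the members with the strongest peaks are shown with those of close neighbours that had no peak, because this contrast is what the values that follow describe. Each is the 250 bases upstream of the RefSeq start on GRCh38.p14, 5′ to 3′ on the gene's strand. Capitals mark matches, on either strand, to any of 8 short motifs: CCAAT (bound by NF-Y), GGGCGG (the GC box of SP factors), CCGGAAG (ETS factors), AAGATGGC (YY1), TGACGTCA (the cyclic AMP response element), CACGTG (the E-box), the palindromic NRF1 motif and TATAAA (the TATA box). No matches overlapped in these promoters. The 4 with a BRD8 peak in both lines are ZNF460 (chr19:57279732-57279981, plus strand), ZNF146 (chr19:36214856-36215105, plus strand, no match), ZNF557 (chr19:7069453-7069702, plus strand) and ZNF121 (chr19:9584505-9584754, minus strand).
ZNF460: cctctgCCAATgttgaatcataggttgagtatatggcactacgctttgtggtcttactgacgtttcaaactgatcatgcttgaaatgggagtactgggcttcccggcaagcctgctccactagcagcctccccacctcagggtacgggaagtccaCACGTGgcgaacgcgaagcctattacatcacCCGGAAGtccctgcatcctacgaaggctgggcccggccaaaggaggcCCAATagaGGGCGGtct
ZNF146: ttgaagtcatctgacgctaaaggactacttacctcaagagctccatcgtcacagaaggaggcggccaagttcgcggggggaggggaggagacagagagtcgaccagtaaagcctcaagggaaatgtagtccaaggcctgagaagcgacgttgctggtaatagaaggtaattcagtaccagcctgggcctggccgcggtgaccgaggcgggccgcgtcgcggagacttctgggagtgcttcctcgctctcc
ZNF557: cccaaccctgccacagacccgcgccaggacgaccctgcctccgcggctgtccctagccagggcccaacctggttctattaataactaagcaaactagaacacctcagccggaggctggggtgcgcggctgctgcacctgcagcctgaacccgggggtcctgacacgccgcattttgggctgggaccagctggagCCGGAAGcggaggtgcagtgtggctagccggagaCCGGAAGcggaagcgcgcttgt
ZNF121: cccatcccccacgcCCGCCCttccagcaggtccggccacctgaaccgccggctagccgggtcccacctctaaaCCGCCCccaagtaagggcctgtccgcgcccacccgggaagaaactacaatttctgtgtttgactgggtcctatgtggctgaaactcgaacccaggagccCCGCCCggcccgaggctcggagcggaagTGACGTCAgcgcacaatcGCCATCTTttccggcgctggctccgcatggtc

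The 3 neighbours, each the closest member of the same cluster with no peak inside it and none within 5 kb of its ends in either line, are ZNF304 (chr19:57351021-57351270, plus strand), ZNF529 (chr19:36605258-36605507, minus strand) and ZNF426 (chr19:9538646-9538895, minus strand).
ZNF304: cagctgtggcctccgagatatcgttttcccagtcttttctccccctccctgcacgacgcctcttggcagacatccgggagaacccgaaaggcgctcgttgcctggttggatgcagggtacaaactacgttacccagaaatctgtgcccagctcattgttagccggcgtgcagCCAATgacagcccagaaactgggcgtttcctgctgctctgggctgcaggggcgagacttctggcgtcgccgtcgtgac
ZNF529: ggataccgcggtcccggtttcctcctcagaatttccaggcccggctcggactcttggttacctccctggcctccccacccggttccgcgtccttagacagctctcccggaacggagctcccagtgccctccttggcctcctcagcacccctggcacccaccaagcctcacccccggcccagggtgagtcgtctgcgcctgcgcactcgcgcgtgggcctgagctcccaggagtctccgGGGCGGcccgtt
ZNF426: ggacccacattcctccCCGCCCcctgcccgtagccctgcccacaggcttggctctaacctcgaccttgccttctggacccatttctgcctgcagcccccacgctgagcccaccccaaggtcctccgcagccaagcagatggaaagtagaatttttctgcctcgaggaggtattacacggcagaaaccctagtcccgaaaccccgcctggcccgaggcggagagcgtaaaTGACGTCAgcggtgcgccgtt

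ZNF304, a KRAB zinc finger protein studied as a repressor in colorectal cancer cells, lies in the cluster of ZNF460. Its nearest summit lay 30440 bp away in HCT116 and 51447 bp away in SW480. The bound ZNF460 promoter held 5 motif matches and the unbound ZNF304 promoter 1, yet the bound ZNF146 promoter held 0 and the unbound ZNF426 promoter 2.

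The deposited lists held 22303 peaks in HCT116 and 12874 in SW480. Chromosome 19 held 1245 of them (5.58%) in HCT116 and 303 (2.35%) in SW480. The background that the peak caller set at chromosome 19 summits had a median of 5.75 fragments in HCT116 and 11.5 in SW480, beside 5.64 and 6.92 over all peaks of those lines. The part of this difference in background in the lower SW480 counts was not tested. A gene absent from a list is not thereby shown to lack BRD8.

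BRD8 peaks were less frequent at the ends of the chromosome 19 zinc finger genes than at those of other genes on the chromosome. In percentage points the gap was wide in HCT116 and narrow in SW480, where gene-end peaks were rarer in both sets. In HCT116, 62 of 246 members (25.2%, 95% Wilson interval 20.2 to 31.0) carried a gene-end peak, meaning that a summit lay at most 1 kb from either of the gene's ends, against 525 of 1205 other chromosome 19 coding genes (43.6%, 40.8 to 46.4). Among all coding genes the HCT116 share was 44.0%. In SW480, 22 members (8.94%, 5.98 to 13.2) had one, against 166 other chromosome 19 genes (13.8%, 11.9 to 15.8), where the share of all coding genes was 22.1%. The share of members minus that of other chromosome 19 genes was −18.4 percentage points in HCT116 (Newcombe interval −24.1 to −12.0) and −4.83 in SW480 (−8.44 to −0.228). Intervals here and below cover counting error only, and whether the shortfall differed between the lines was not tested. With summits within 500 bp the HCT116 difference was −9.61 percentage points, and with peaks of −log10 q of at least 5 the SW480 count of members was 14.

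The low share was not seen for ZNF genes elsewhere in the genome. Of the 263 ZNF genes on other chromosomes, 145 (55.1%, 49.1 to 61.0) carried such a peak in HCT116, and 61 (23.2%, 18.5 to 28.7) did in SW480. The chromosome 19 members lay 29.9 percentage points lower in HCT116 (difference −29.9, −37.7 to −21.6) and 14.3 lower in SW480 (difference −14.3, −20.5 to −7.94). Median gene length was 23151.5 bp for the chromosome 19 members and 24694 bp for the ZNF genes elsewhere. A list of 20 further chromosome 19 zinc finger genes, picked by symbol (those starting with ZFP, ZSCAN, ZIM, ZIK or ZBTB, and PEG3 and MZF1) and not complete, had 5 bound in HCT116 (25%) and 1 in SW480 (5.00%). That gene was ZBTB32, a repressor known from lymphocytes, with folds of 7.37 in HCT116 and 2.87 in SW480. Its SW480 peak lay at the 3′ end and not at the promoter. Of the 14 genes of this list with known strand, 0 had a 5′-end peak in SW480 and 1 had a 3′-end peak. ZFP36, ZSCAN22, ZBTB45 and MZF1 were bound in HCT116 alone.

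**Figure D1:**
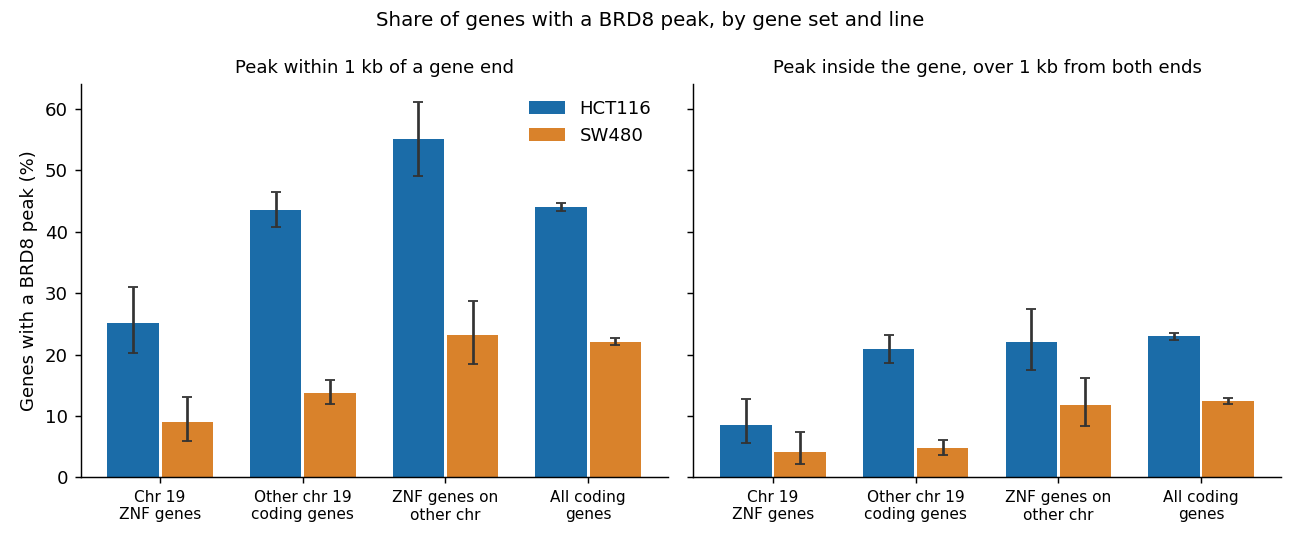
Percent of genes with a BRD8 peak in HCT116 (blue) and SW480 (orange), for peaks within 1 kb of a gene end (left) and peaks inside the gene more than 1 kb from both ends (right). Bars are shares and lines are 95% Wilson intervals. The 246 chromosome 19 ZNF genes, at 25.2% and 8.94% for gene ends, sit below each of the other 3 sets in both lines.

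Peaks at the members lay at their 5′ ends. Strand was known for 216 of the 246 members. Of these, 57 (26.4%) carried a peak at the 5′ end in HCT116, as did 20 (9.26%) in SW480, against 411 of 969 (42.4%) and 125 (12.9%) of the other chromosome 19 genes of known strand. The intervals are apart in HCT116 and overlap in SW480 (6.07 to 13.9 at members, 10.9 to 15.2 at other genes). The shares over all coding genes were 44.9% in HCT116 and 23.1% in SW480. The strongest gene-end peak was at the 5′ end in 56 of 57 bound members of known strand in HCT116 and in 20 of 20 in SW480. The exception was ZNF580, a short gene whose strongest peak (fold 5.01) lay at its 3′ end.

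The 3′ ends, where the finger exons lie, were nearly free of peaks. A 3′-end peak was present at 3 of 216 members (1.39%) in HCT116, namely ZNF580, ZNF8 and ZNF324, and at 0 of 216 in SW480. The SW480 count allows a share of up to 1.39% by a limit of 3 counts and up to 1.75% by the Wilson interval. Other chromosome 19 genes had 91 of 969 (9.39%) and 22 of 969 (2.27%). Over all coding genes the shares were 4.54% in HCT116 and 1.49% in SW480. The SW480 share of all coding genes lies inside the Wilson interval of the members, so no shortfall is read from SW480. With peaks of −log10 q of at least 5, or with as many HCT116 as SW480 peaks, 1 member had a 3′-end peak in HCT116, and within 2 kb 5 had. For ZNF324 the 3′ end lies next to the 5′ end of ZNF446, and the peak there (fold 2.39) is the 5′ peak of ZNF446. For ZNF genes on other chromosomes the 3′ shares were 3.27% in HCT116, with 7 of 214, and 0 of 214 in SW480.

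The gene-end summits mostly sat close to the annotated start. Only summits within 1 kb of a gene end were counted, so this closeness is partly set by that choice. Relative to the nearest listed start, the HCT116 summits had a median position of 104 bp downstream (quartiles −175 and 179 bp). Their range was −8505 to 1254 bp, and 52 of 57 lay within 500 bp. The SW480 summits had a median of 110 bp downstream, and 18 of 20 lay within 500 bp. The summit was downstream of the start in 38 of 57 members in HCT116 and in 12 of 20 in SW480.

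**Figure D2:**
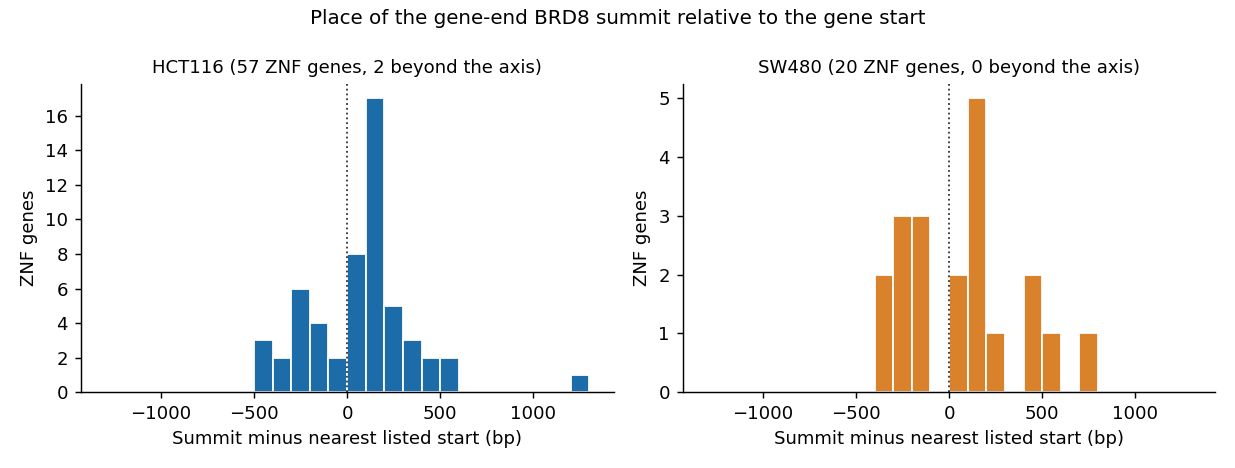
Position of the strongest gene-end BRD8 summit relative to the nearest RefSeq start, in bp along the gene's strand, as counts of members per 100 bp in HCT116 (left, 57 members) and SW480 (right, 20 members). The dotted line is the start. Summits fall on both sides of it, with the tallest bar just downstream in both lines.

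Some peaks counted for a member also lay at another gene. Of the 62 bound members in HCT116, 37 had a summit near no other gene end, 14 also lay within 1 kb of a noncoding gene's end, 8 of another coding gene's and 3 of another member's. In SW480 the numbers were 15, 5, 2 and 0 of 22. ZNF490 and ZNF791, which start back to back, share 1 peak of fold 2.87, and the ZNF524 peak lies also at FIZ1, a zinc finger gene that is neither a member nor on that symbol list.

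The strongest peaks belonged to ZNF460 and ZNF146. The deposited fold is the summit pileup over the peak caller's local background, each with 1 added, and pileup and background are in fragments. ZNF460 (chr19:57279982-57294069), a KRAB zinc finger gene, had a fold of 20.2 in HCT116 from a pileup of 95 over a background of 3.75, and a fold of 8.02 in SW480 from a pileup of 118 over 13.8. Its HCT116 peak covered chr19:57278814-57281003. Among bound chromosome 19 coding genes it ranked 2 of 587 in HCT116 and 1 of 188 in SW480, and among all bound coding genes 21 of 8793 and 62 of 4415.

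ZNF146 (chr19:36214723-36238768), whose protein consists almost wholly of fingers without a KRAB box, had a fold of 18.96 in HCT116 (pileup 89, background 3.75) and 5.87 in SW480 (pileup 76, background 12.1). It ranked 3 of 587 and 10 of 188 on chromosome 19. Its summit is near the listed start but more than 500 bp from the outer end of the gene, so a window of that size leaves it out. In HCT116 both folds stood well above the next highest among members, 9.90 at ZNF557. In SW480 only that of ZNF460 did, since ZNF121 followed ZNF146 closely, at 5.67.

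The following folds were lower and closer to one another. In HCT116, ZNF557 was followed by ZNF497 at 8.93, ZNF181 at 8.58, ZNF121 at 8.07, ZNF524, which encodes a telomere-binding protein, at 7.93, ZNF414 at 7.04, ZNF507 at 6.77 and ZNF628 at 6.33. In SW480, ZNF121 was followed by ZNF507 at 4.87, ZNF628 at 4.15, ZNF888 at 3.94, ZNF181 at 3.83, ZNF274 at 3.79, ZNF45 at 3.74 and ZNF557 at 3.41. ZNF274, the protein that marks zinc finger gene 3′ ends, thus had a peak at its own 5′ end in both lines, with a fold of 5.00 in HCT116 and 3.79 in SW480.

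Bound members had peaks of about the height found at other bound genes of the chromosome. The median fold was 4.45 (2.24 to 20.2) at the 62 HCT116-bound members and 4.79 at 525 other chromosome 19 genes. In SW480 it was 3.14 (2.12 to 8.02) at 22 members and 3.35 at 166 other genes, a ratio of 0.936 that became 1.02 with peaks of −log10 q of at least 5. The median pileup was 30.5 fragments at members and 33 at other genes in HCT116, and 38.5 at members and 44 at other genes in SW480. The members thus stood apart in how many had a peak, and little in the median fold of those that did. Unbound members were also far from any peak, with a median of 95144.5 bp from a gene end to the nearest summit in HCT116 against 17439 bp at unbound other chromosome 19 genes, and 146068 bp against 54580 bp in SW480.

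Of the 246 members, 19 had a gene-end peak in both lines, 43 in HCT116 alone, 3 in SW480 alone and 181 in neither. The 19 shared members were 30.6% of those bound in HCT116 and 86.4% of those bound in SW480. Other chromosome 19 coding genes gave 29.9% and 94.6%. At 18 of the 19 shared members the peak regions of the lines overlapped, and their summits lay a median of 93 bp apart (1 to 974).

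At these 19 genes the fold differed between the lines while the pileup had no common direction. The fold was higher in HCT116 at 18 of 19, with ZNF45 as the exception, and the median ratio of HCT116 to SW480 was 1.78. Over all bound coding genes the median gene-end fold was also higher in HCT116, at 4.87 against 3.40 in SW480. The like count at other shared genes is not given here, so 18 of 19 is not read as particular to the members. The pileup was higher in HCT116 at 9 of 19, with a median ratio of 1. The median ratio of the local background was 0.532, with medians of 5.64 fragments in HCT116 and 12.7 in SW480. Folds of the lines are therefore set side by side here and not read as more or less BRD8.

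**Figure D3:**
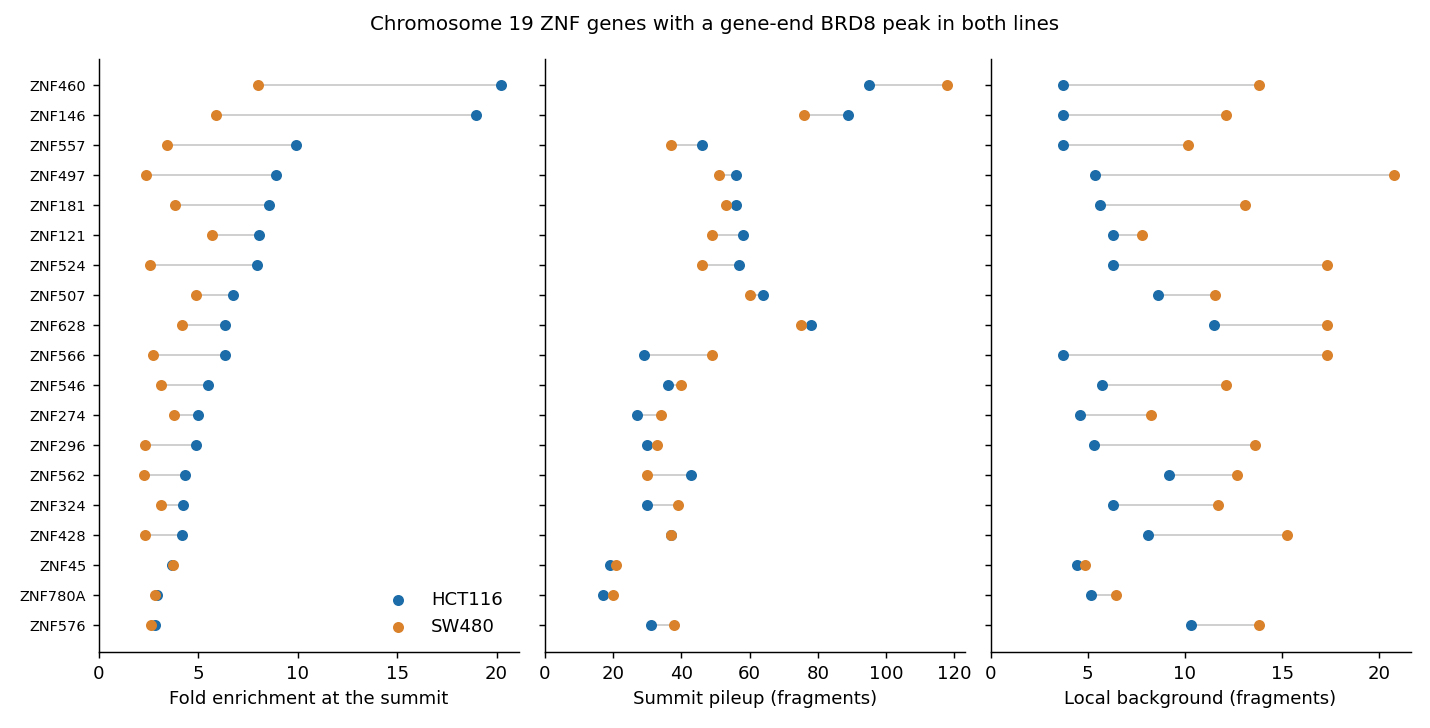
Fold (left), summit pileup in fragments (middle) and local background in fragments (right) at the 19 members with a gene-end peak in both lines, HCT116 in blue and SW480 in orange, 1 row per gene in order of HCT116 fold. HCT116 points lie right of SW480 points for fold at 18 of 19 genes, left of them for background at all 19, and on either side for pileup.

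The 3 members bound in SW480 alone were ZNF888 with a fold of 3.94, ZNF260 with 3.0 and ZNF17 with 2.12. ZNF260 is known from rodents as a regulator of cardiac genes. The nearest HCT116 summits lay 6858 bp from an end of ZNF888, 21381 bp from ZNF260 and 13523 bp from ZNF17. Of the 43 bound in HCT116 alone, the 5 with the highest −log10 q were ZNF317 (21.2), ZNF414 (18.6), ZNF580 (17.5), ZNF180 (15.7) and ZNF561 (15.7). An SW480 summit lay within 5 kb of an end at 3 of the 43, which were ZNF616, ZNF180 and ZNF552.

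The clusters differed widely along the chromosome, as the plot of shares by cluster shows. The highest HCT116 share was in cluster 10 (chr19:55476617-55645623), a short stretch of 0.169 Mb that runs from ZNF628 to ZNF580, where 5 of 7 members were bound (71.4%, 35.9 to 91.8). Cluster 2 (chr19:9140397-9786160), which includes ZNF121, followed with 6 of 11 (54.5%, 28.01 to 78.7). The largest cluster, cluster 12 near the end of the long arm (chr19:57191500-58489533), had 14 of 43 (32.6%, 20.5 to 47.5). It holds ZNF460.

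The sparsest was cluster 5 (chr19:20530276-23395471), from ZNF737 to ZNF91, a repressor of SVA retrotransposons. This cluster is the longest, at 2.865 Mb, and it held 1 HCT116 peak, at the 5′ end of ZNF100 (fold 3.79), and 0 SW480 peaks. Thus 1 of its 25 members was bound in HCT116 (4%, 0.710 to 19.5) and 0 of 25 in SW480. No other coding gene lies within its span. Cluster 9 (chr19:51571283-53580269), with 39 members, also had few, with 5 bound in HCT116 (12.8%, 5.603 to 26.7) and 1 in SW480 (2.56%).

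In HCT116 every one of the 12 clusters had at least 1 bound member when all deposited peaks were used, and 1 was enough for this in clusters 4, 5, 6 and 11. In SW480, clusters 1, 3, 4, 5 and 11 had none, over 72 members, which allows a share of up to 4.17% by the limit of 3 counts. The strongest HCT116 gene-end peak of each cluster, in order along the chromosome, belonged to ZNF77 (fold 5.37), ZNF121 (8.07), ZNF627 (4.73), ZNF101 (4.22), ZNF100 (3.79), ZNF181 (8.58), ZNF146 (18.96), ZNF180 (4.65), ZNF83 (5.18), ZNF524 (7.93), ZNF787 (6.09) and ZNF460 (20.2).

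**Figure D4:**
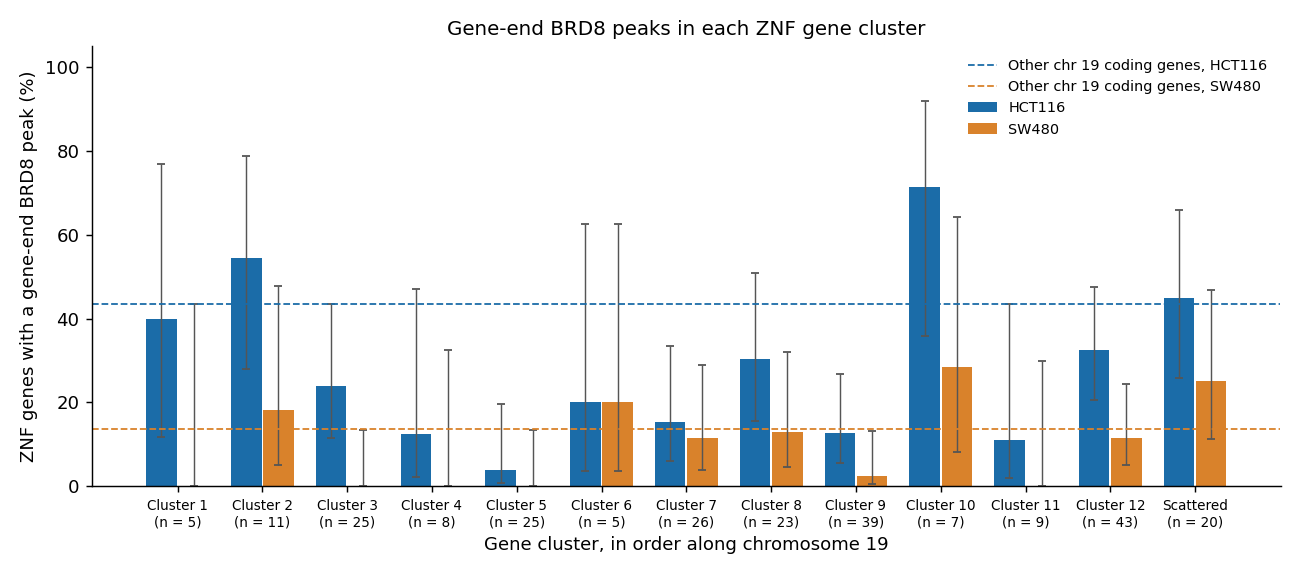
Percent of ZNF genes with a gene-end BRD8 peak in each of the 12 clusters, in order along chromosome 19, and at the 20 scattered members, in HCT116 (blue) and SW480 (orange), with 95% Wilson intervals. Dashed lines mark the share of other chromosome 19 coding genes, 43.6% in HCT116 and 13.8% in SW480. Clusters 2 and 10 and the scattered genes lie above the HCT116 line, and cluster 5 is lowest.

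The bound share was lower at clustered than at scattered members, though the intervals touch in both lines. In HCT116, 53 of 226 clustered members (23.5%, 18.4 to 29.4) and 9 of 20 scattered ones (45.0%, 25.8 to 65.8) were bound. In SW480 these counts were 17 (7.52%, 4.75 to 11.7) and 5 (25%, 11.2 to 46.9). The scattered share in HCT116 was thus near the 43.6% of other chromosome 19 genes, and with 20 genes its interval spans a wide range. Among the scattered members are ZNF557, ZNF507, ZNF546, ZNF780A and ZNF296, which were bound in both lines. Scattered means only outside every run of at least 5 members, so members of shorter runs count as scattered too.

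The share was also low at the other genes inside the cluster spans. Of the 66 other coding genes that lie between members of a cluster, 12 (18.2%, 10.7 to 29.1) were bound in HCT116 and 4 (6.06%, 2.38 to 14.6) in SW480. Outside the spans, 513 of 1139 (45.0%, 42.2 to 47.9) and 162 (14.2%, 12.3 to 16.4) did. These 66 include 3 read-through loci that run over members, share ends with them and are not separate genes (ZNF559-ZNF177, ZNF816-ZNF321P and ZNF765-ZNF761), as well as zinc finger genes with other symbols, olfactory and vomeronasal receptor genes and SIGLEC genes. Counted by length, the spans held 92 HCT116 peaks in 12.2347 Mb (7.52 per Mb, exact Poisson interval 6.06 to 9.22), against 26.9 per Mb (25.4 to 28.5) in the rest of the chromosome outside its largest gene-free stretch. For SW480 there were 32 peaks (2.62 per Mb, 1.79 to 3.69) against 6.18 per Mb (5.46 to 6.97). Of these peaks in the spans, 65 of 92 in HCT116 and 25 of 32 in SW480 lay at an end of a gene of any type.

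Position within a cluster went with binding in HCT116. The outermost members, 2 per cluster, were bound in 12 of 24 cases (50%, 31.4 to 68.6) and the inner ones in 41 of 202 (20.3%, 15.3 to 26.4). In SW480 the outermost members were bound in 1 of 24 (4.17%, 0.739 to 20.2) and the inner ones in 16 of 202 (7.92%, 4.93 to 12.5), so the order was the other way and the intervals overlap. Members within 10 kb of an end of a coding gene that is no member were bound in 26 of 59 cases (44.1%, 32.2 to 56.7) in HCT116, against 36 of 187 (19.3%, 14.2 to 25.5) farther away. In SW480 the counts were 7 of 59 (11.9%, 5.87 to 22.5) and 15 of 187 (8.02%, 4.92 to 12.8). With a limit of 50 kb the HCT116 share was 37.1% at nearer and 14.6% at farther members, and the SW480 share was 12.1% at nearer and 6.15% at farther members.

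Peaks inside the members, more than 1 kb from both ends, were few. They were present in 21 members (8.54%, 5.65 to 12.7) in HCT116 and 10 (4.07%, 2.22 to 7.32) in SW480. Other chromosome 19 genes gave 251 (20.8%) and 57 (4.73%), and all coding genes 23.0% in HCT116 and 12.5% in SW480. The difference from other chromosome 19 genes was −12.3 percentage points in HCT116 (−16.0 to −7.59) and −0.665 in SW480 (−2.95 to 2.76). The SW480 interval includes 0. The strongest inside peak lay within 1 kb of a listed inner start in 13 of 20 members of known strand in HCT116 and in 5 of 10 in SW480, and in the last 25% of the gene in 1 of 20 and 2 of 10.

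The strongest inside peaks at members without a gene-end peak were, in HCT116, ZNF565 (fold 18.96), ZNF574 (13.3), ZNF749 (12.7), ZNF302 (6.63) and ZNF558 (5.76). The ZNF565 peak is the ZNF146 peak, since ZNF565 spans that gene's start on the opposite strand. The summits in ZNF574 and ZNF749 lay 451 and 132 bp from a listed start within the gene. In SW480 the 5 highest folds were ZNF565 (5.87), ZNF574 (3.68), ZNF180 (3.57), ZNF567 (3.34) and ZNF536 (3.30), the last a repressor of neuronal genes. The SW480 summits in ZNF180, ZNF567 and ZNF536 lay 23331, 32171 and 20406 bp from the nearest listed start. Counting any gene-end or inside peak, 72 members (29.3%) had one in HCT116 and 31 (12.6%) in SW480, and 169 (68.7%) had none in either line. The like shares of other genes are not given here, so these counts are not read as particular to the members.

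When summits were counted within 1 kb of any listed start in place of the outermost ends, 66 of 216 members (30.6%) were bound in HCT116 and 25 (11.6%) in SW480. Other chromosome 19 genes gave 444 of 969 (45.8%) and 141 (14.6%). The SW480 difference was then −2.98 percentage points, and the intervals overlap (7.96 to 16.5 at members, 12.5 to 16.9 at other genes). Over all coding genes of known strand the shares were 47.7% in HCT116 and 25.1% in SW480.

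CpG is the dinucleotide that is dense in promoters of broadly used genes. Over the 250 bases upstream of the start, the median ratio of observed to expected CpG was 0.729 at 216 members, against 0.687 at 969 other chromosome 19 genes and 0.801 at 214 ZNF genes on other chromosomes. The median CpG count ran lower at the members, at 16, against 17 and 19 in those sets. GC content was lower at the members, with a median of 59.6% against 63.6% at other chromosome 19 genes. The median CpG ratio was 0.812 at bound and 0.705 at unbound members in HCT116, and 0.814 at bound and 0.718 at unbound members in SW480.

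At like CpG ratio the member shares were below those of both comparison sets in each class of both lines. All coding promoters were split into 3 classes of equal size at ratios of 0.545 and 0.850. In HCT116, members were bound in 14.9%, 25% and 36.9% of the low, middle and high class, against 18.6%, 56.6% and 72.5% of other chromosome 19 genes and 26.3%, 64.6% and 60.0% of ZNF genes elsewhere. The intervals of members and the other chromosome 19 genes overlap in the low class and are apart in the middle and high classes. In SW480 the member shares were 0 of 47 (interval up to 7.56%), 11.5% and 12.3%, against 4.58%, 16.4% and 25.4% at other chromosome 19 genes and 10.5%, 32.3% and 27.5% at ZNF genes elsewhere. There the intervals of members and other chromosome 19 genes overlap in each class.

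**Figure D5:**
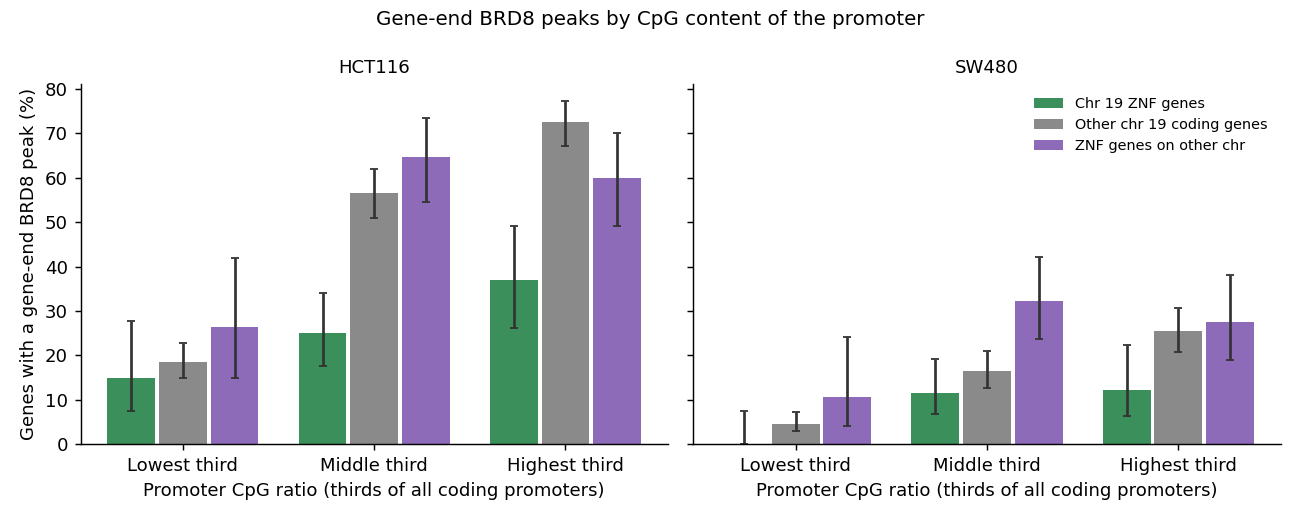
Percent of genes with a gene-end BRD8 peak by CpG ratio of the promoter, in 3 classes of all coding promoters, for HCT116 (left) and SW480 (right), with 95% Wilson intervals. Chromosome 19 ZNF genes (green) stand left of other chromosome 19 coding genes (grey) and ZNF genes on other chromosomes (purple). In the highest class of HCT116 the shares are 36.9%, 72.5% and 60.0%.

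The 8 motifs were searched on both strands in these 250 bases, as in the promoters printed above. CCGGAAG was in 31.0% of member promoters, against 11.2% of other chromosome 19 promoters and 8.79% of all 27195 listed promoters, and it was also frequent at ZNF genes elsewhere (26.6%). CCAAT was in 51.4%, against 36.5% and 33.0%, and GGGCGG in 64.8%, against 63.5% and 42.3%. TATAAA was in 2.31%, against 7.64% and 11.2%, and CACGTG in 3.70%, against 7.84% and 6.47%. AAGATGGC was in 4.17%, against 1.75% and 1.38%. TGACGTCA and the NRF1 motif were each in 2.31% of member promoters, against 2.79% and 1.75% of other chromosome 19 promoters and 1.75% and 1.13% of all listed ones. The listed promoters outnumber the coding genes. Over 15812 coding genes the shares were 11.7% for CCGGAAG, 34.4% for CCAAT, 55.8% for GGGCGG and 9.36% for TATAAA. They were 7.79% for CACGTG, 1.41% for AAGATGGC, 2.29% for TGACGTCA and 1.49% for the NRF1 motif.

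Bound and unbound members are set side by side for the 3 most frequent of these motifs. In HCT116, CCGGAAG was in 26.3% of 57 bound and 32.7% of 159 unbound members, CCAAT in 40.4% and 55.3%, and GGGCGG in 75.4% and 61.0%, and the intervals overlap for each. In SW480, CCAAT was in 5 of 20 bound (25%, 11.2 to 46.9) and 106 of 196 unbound members (54.1%, 47.1 to 60.9), whose intervals are just apart. There CCGGAAG was in 25% of bound and 31.6% of unbound members and GGGCGG in 60% and 65.3%, with overlapping intervals. A match is a run of letters and not a measured site. A stretch of 50 bases copied in another listed promoter was found in 6 of 216 member promoters (2.78%) and in 4.02% of other chromosome 19 promoters. Among the 210 members without one, the bound shares were 26.7% in HCT116 and 9.52% in SW480.

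The genes that act with KRAB zinc finger proteins were bound in a larger share than the zinc finger genes themselves. Of 20 listed co-repressor genes, 15 were bound in HCT116 (75%, 53.1 to 88.8) and 11 in SW480 (55.0%, 34.2 to 74.2), beside 44.0% and 22.1% of all coding genes. TRIM28, the scaffold that the KRAB box recruits, lies at chr19:58544064-58550715 just beyond cluster 12, and had a fold of 6.68 in HCT116 and no SW480 gene-end peak. SETDB1, the histone methyltransferase that acts with TRIM28, had folds of 6.65 in HCT116 and 2.90 in SW480, and its partner ATF7IP 12.5 and 7.84.

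Of the heterochromatin proteins, CBX5, whose promoter is shared with HNRNPA1, had 28.3 in HCT116 and 5.29 in SW480, CBX1 had 4.62 and 3.21, and CBX3 had a peak in SW480 alone (3.64). The HUSH silencing complex had MPHOSPH8 at 3.69 and 2.47, PPHLN1 at 5.46 and 2.69, and TASOR at 4.95 in HCT116 alone, and the HUSH effector MORC2 was also bound in HCT116 alone (3.34). The chromatin remodeller SMARCAD1 had 11.7 and 5.24, and the DNA methyltransferase DNMT1 8.08 and 3.06. HDAC2 (6.38), HDAC1 (4.37), both histone deacetylases, and ATRX (6.11) and DAXX (5.89), which together deposit a histone variant, were bound in HCT116 alone. CHD3 (2.80) and MORC3 (2.29) had a gene-end peak in SW480 alone, and CHD4 and UHRF1 in neither line. These counts leave out peaks inside genes, of which UHRF1 held 5 in HCT116 and 1 in SW480, CHD4 1 in HCT116 and 0 in SW480, and CHD3 2 in HCT116 and 1 in SW480. HDAC2, with a gene-end peak in HCT116 alone, held 1 inside peak in HCT116 and 1 in SW480.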

How the data were processed

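Peak lists of 1 BRD8 ChIP library per line were analysed; input signal was not used here. Per the submitters' processing notes, Trimmomatic 0.33, Bowtie2 2.4.1, MACS2 and deepTools were used with GRCh38. Settings not given in the sources used here, among them the handling of duplicate or multiply mapping reads, could change these lists. The deposited fold is a ratio to the caller's local background. Each peak's deposited −log10 p and −log10 q refer to its summit, and both lists end at a q threshold of 0.05. The score in the deposited lists equals the −log10 q times 10, cut to a whole number, for 99.8% (HCT116) and 99.98% (SW480) of peaks. The deposited summit offset is a position in the region. Lists were called per library, without pooling.

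Python 3.11.15, pandas 2.3.3 and scipy 1.17.1 were used on chromosomes 1 to 22 and X. Gene bounds, listed starts and promoters came from RefSeq tables of GRCh38.p14. Strand was taken from the promoter table. A gene's value is its gene-end peak of highest fold. Pileup and background were solved from fold and p, to a relative error of 0.0001 in p, for 99.991% of HCT116 and 99.977% of SW480 peaks, and the lists give no read totals. Peak assignment and this step were checked on simulated data. Shares have 95% Wilson intervals, their differences Newcombe intervals. With 1 library per line no test was made, and genes are not replicates. KRAB boxes and finger counts were not analysed here.

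The members, lists and naming rule were chosen with earlier results of these data known. Named genes were, per line, the 10 members of highest gene-end fold, up to 5 with a 3′-end peak and the 5 highest inside peaks without a gene-end peak; all members bound in SW480 alone; the 5 of highest −log10 q bound in HCT116 alone; the top member of each cluster; all co-repressor genes; and the printed promoters. The alternatives were stricter peak thresholds, equal peak numbers, other windows, other cluster gaps and other member sets.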

Additional observations from a re-analysis of the deposited data

How the results depend on the processing

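The gene-end share of members stayed below that of other chromosome 19 coding genes in 18 of 18 differences computed, from −23.8 to −9.61 percentage points in HCT116 and from −5.93 to −2.98 in SW480. Not all of these could have gone the other way. Leaving out members that share a peak with another coding gene removes bound members alone and nothing from the comparison set. That setting could only lower the member share, and it gave −20.9 in HCT116 and −5.58 in SW480. Of 163 alternatives over 21 results, 146 stayed within their limits, 16 moved and 1 reversed, and the causes were not tested. For a difference the limit was its interval as first reported, and for counts and ratios a fixed factor. The setting with equal peak numbers trims the HCT116 list alone. Its SW480 values per line therefore repeat those first reported and are counted as unchanged. All alternatives use the same lists and are not independent. At a −log10 q of at least 5, SW480 kept fewer peaks, with 14 members bound at a gene end, 12 at the 5′ end, 2 inside and 11 in clusters; 12 were bound in both lines, 1 had a 3′-end peak in HCT116, and 1 HCT116 cluster had no bound member. There the SW480 ratio of median fold, bound members over other bound chromosome 19 genes, was 1.02, against 0.936 with all peaks. With equal numbers of peaks, HCT116 had 1 member with a 3′-end peak and 1 cluster without a bound member, and 6 members were bound in SW480 alone. With summits within 500 bp, the HCT116 difference was −9.61 and 1 HCT116 cluster had no bound member. ZNF146 was lost in both lines, because its summit lies more than 500 bp from its outer end. Its listed start lies 383 bp inside that end. With summits within 2 kb, 5 HCT116 members had a 3′-end peak and 12 an inside peak. With gaps of 100 kb, 3 of 13 clusters had no bound member in HCT116, and with 500 kb, 3 of 10 had none in SW480. Counting from listed starts was chosen after seeing the data. The KRAB and finger alternatives were not run, since no protein table was used. No paired analysis was possible because each line has 1 ChIP library and the labels carry no replicate numbers. Read depth is unknown, and its part in missing peaks was not tested.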
